A study of Homo sapiens with 8 samples.

Results

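Terminal oligopyrimidine (TOP) mRNAs begin at their cap with a cytosine followed by an unbroken run of pyrimidines. The genes described here are 10 TOP mRNAs that do not encode ribosomal proteins, taken from the count table by symbol: EEF1A1, EEF1B2, EEF1D, EEF1G, EEF2, PABPC1, EIF4B, TPT1, NAP1L1 and HNRNPA1. All 10 were found among the 78932 gene IDs of the count table, and all 10 were among the 24289 genes with enough counts to test.

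The libraries were made from polysome profiles, in which a sucrose gradient separates mRNAs by the number of ribosomes they carry. Molm13 and U937 are human acute myeloid leukaemia lines, U937 of monocytic character. Both were sampled under a control label and under an OGFOD1 OE (overexpression) label. Per the protocols, OE stands for a lentivirus carrying an OGFOD1 expression vector. Library names of the control samples hold Scr, which the sources used here do not spell out. What the control cells carried is not described further in them. All cells received cycloheximide, which halts ribosomes on mRNA. Each of the 4 gradients (Molm13 control, Molm13 OE, U937 control, U937 OE) gave a light pool, which joins the free ribonucleoprotein, monosome and disome fractions, and a heavy pool of the fractions with 3 or more ribosomes. Thus every group of genotype label and pool held 2 libraries, 1 per line.

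TOP mRNAs encode ribosomal proteins and other parts of the translation machinery. Their translation is switched as a group: the kinase mTORC1 permits it in growing cells, and when mTORC1 is inactive the cap-binding protein LARP1 and the 4E-BP repressors of eIF4E hold TOP mRNAs outside polysomes while the mRNAs remain stable. Elongation factors, the poly(A)-binding protein PABPC1 and TPT1 are classical TOP mRNAs outside the ribosome.

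The start sequences are shown because the run at the first base is what defines the class. RefSeq annotation (GRCh38.p14) held a start for 7 of the 10 genes; each line gives 10 bases before the start and 20 from it, on the gene's own strand, and capitals mark the pyrimidine run at or next to the start. The bases from the start on lie in the first annotated exon.
EEF1A1: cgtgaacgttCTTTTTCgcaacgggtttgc
EEF2: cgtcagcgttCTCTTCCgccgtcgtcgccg
EEF1B2: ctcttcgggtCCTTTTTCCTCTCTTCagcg
EEF1G: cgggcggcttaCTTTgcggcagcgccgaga
TPT1: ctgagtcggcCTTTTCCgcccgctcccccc
NAP1L1: gctcttgggtCTTTTTTagcgccatctgct
EIF4B: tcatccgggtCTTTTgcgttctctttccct
For comparison, the ribosomal protein mRNA RPS23 and the glycolytic enzyme mRNA GAPDH are shown over the same window.
RPS23: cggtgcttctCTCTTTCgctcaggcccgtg
GAPDH: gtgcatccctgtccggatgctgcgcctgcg

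These windows lie at chr6:73521013-73521042 (EEF1A1, minus strand), chr19:3985444-3985473 (EEF2, minus), chr2:206159885-206159914 (EEF1B2, plus) and chr11:62573872-62573901 (EEF1G, minus). TPT1 was read at chr13:45341164-45341193 (minus), NAP1L1 at chr12:76084666-76084695 (minus) and EIF4B at chr12:53006446-53006475 (plus). RPS23 was read at chr5:82278335-82278364 (minus) and GAPDH at chr12:6535254-6535283 (plus). A run at the start was counted when a C stood at the first base and at least 5 pyrimidines (C or T) followed each other from there, on the transcribed strand only. By that rule 6 of the 7 genes had it: EEF1B2 with a run of 16, EEF1A1, EEF2, TPT1 and NAP1L1 with 7, and EIF4B with 5. EEF1G had an A at its annotated first base and a run of 4 from the second base, and another annotated start of EEF1B2 had none. Of all 35116 annotated start windows, 1429 (4.07%) had the run. An annotated start can lie some bases from the start used in these cells, which was not measured. No start was read for PABPC1, EEF1D and HNRNPA1.

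Several facts of the libraries bear on every value below. The smallest library was Molm13 OE heavy with 25741930 counts and the largest Molm13 control light with 89373133. The lowest count of any of the 10 genes was 2826 reads (EIF4B in Molm13 OE heavy; exact Poisson 95% interval 96.3% to 104% of that count, counting error only), so counting error is small beside the spread between libraries. OGFOD1 itself was lower, not higher, under the OE label: 33.0 against 16.7 CPM (counts per TMM-scaled library size, put on the usual common scale) in the Molm13 light pools, 44.4 against 25.3 in the Molm13 heavy pools, and in U937 49.8 against 10.1 (light) and 60.2 against 12.4 (heavy). OE is therefore used below as a label only, and no direction of OGFOD1 dosage is read from it. The Molm13 control light library stood apart, with 2.49% of its counts from mitochondrial genes against 19.8% to 23.3% in the other 3 light libraries and 0.360% to 0.941% in the heavy ones. Results are therefore given with and without that library. All 10 myeloid markers tested for averaged above 1 CPM (summed level 764 to 1511 CPM in light and 1344 to 2320.5 CPM in heavy libraries). Among 12 markers of other cells, CD3D averaged 36.1 CPM and PECAM1 83.4 CPM, MS4A1 and ALB had no count in any library, and the summed level of the list was 40.0 to 133 CPM in light and 50.4 to 257 CPM in heavy libraries. Levels are relative to the other RNA of a library, so they do not measure what share of an mRNA sat in each pool, and in these bulk libraries fewer cells with an mRNA and less mRNA per cell cannot be told apart.

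Most of the 10 mRNAs were lower in the heavy pools. In edgeR's quasi-likelihood test over both genotype labels, 8 of 10 fell in the heavy pool relative to the light pool and none rose, where 12.8% of all tested genes fell (Benjamini-Hochberg adjusted p under 0.05). Their median log2 heavy minus light was -1.74, against -0.04 over all 24289 tested genes. PABPC1 was the lowest at -3.15, and EEF1D (-0.67) and HNRNPA1 (-0.66) did not pass. Together the 10 mRNAs made up 2.85% to 4.81% of all counts in 3 light libraries, 1.27% in the Molm13 control light library, and 0.621% to 1.09% in the heavy libraries. Leaving the Molm13 control light library out gave a median of -1.99, with all 10 fitted values below 0. That fit leaves 1 control light library and estimates the spread anew. A call gained in it, here or below, therefore need not mean a larger difference.

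**Figure D1:**
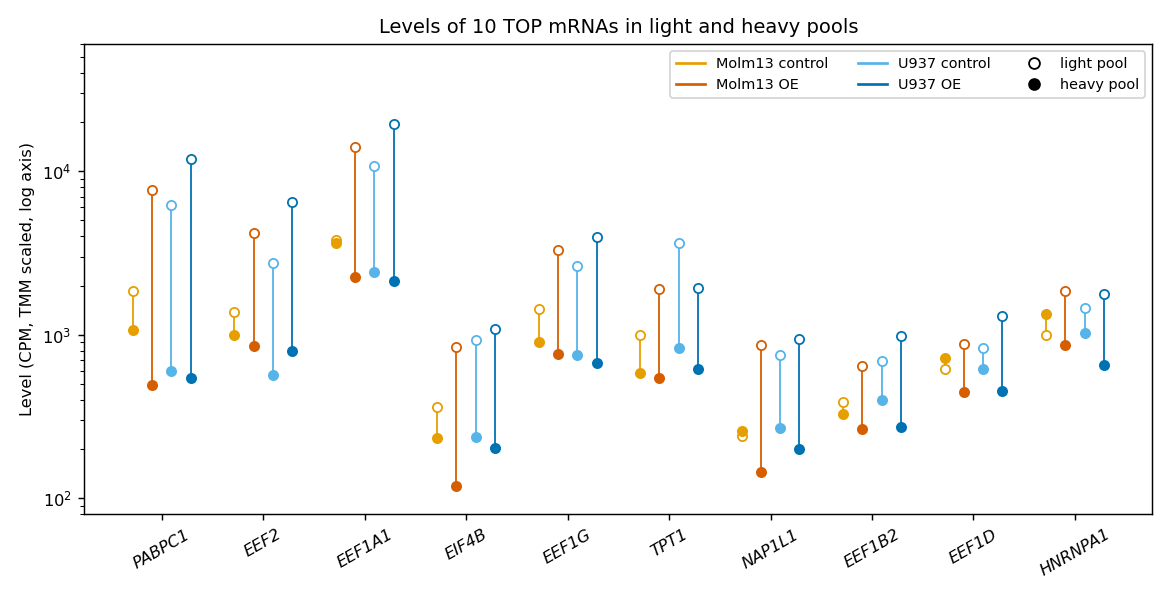
Levels of the 10 mRNAs in CPM on a log axis, with open symbols for light pools, filled symbols for heavy pools and a colour per gradient; each point is 1 library. All 4 heavy values lie below all 4 light values for 6 genes, and the Molm13 control light value is the lowest light value of every gene.

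The elongation factors come first. EEF1A1 (chromosome 6, 73515750 to 73523797, minus strand, GRCh38) delivers aminoacyl-tRNA to the ribosome. It stood at 3790.4 CPM in the light against 3658 CPM in the heavy pool of Molm13 control, at 14008 against 2258 CPM in Molm13 OE, at 10742 against 2410.4 CPM in U937 control and at 19482 against 2125 CPM in U937 OE. All 4 heavy libraries were below all 4 light ones, but in Molm13 control the pools differed by 1.04-fold only, against 4.46-fold to 9.17-fold in the other gradients. The fitted log2 heavy minus light was -2.03 (SE 0.45, edgeR adjusted p = 0.00571). This call was lost without the U937 OE heavy library (adjusted p = 0.0636) and in DESeq2 (0.0748).

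EEF2 (chromosome 19, 3976056 to 3985469, minus strand), which moves the ribosome along the mRNA by a codon at each step, had 1371 CPM in the light and 1001 CPM in the heavy pool of Molm13 control. Its light and heavy levels were 4204 and 849 CPM in Molm13 OE, 2758 and 566 CPM in U937 control, and 6484 and 800.2 CPM in U937 OE. No heavy value reached a light value, and the fitted difference was -2.01 (SE 0.40, edgeR adjusted p = 0.00342).

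The eEF1B complex, which recharges eEF1A with GTP, has 3 subunits among the 10 genes. EEF1G (chromosome 11, 62559601 to 62574086, minus strand), the gamma subunit, had light levels of 1443, 3319, 2643 and 3942 CPM in Molm13 control, Molm13 OE, U937 control and U937 OE, and heavy levels of 903, 758, 748 and 674 CPM in the same order. The pools did not overlap, and the difference was -1.80 (SE 0.36, edgeR adjusted p = 0.00328). EEF1B2 (chromosome 2, 206159585 to 206162928, plus strand), the exchange-factor subunit beta, had light levels of 389.8, 642, 688 and 984 CPM and heavy levels of 327, 263, 398 and 273 CPM. Here the lowest light library, Molm13 control, fell just below the highest heavy library, U937 control. Its difference was -1.04 (SE 0.30, edgeR adjusted p = 0.0203), a call lost with the gradient as a block (adjusted p = 0.0627). It was also lost without any single library of Molm13 OE light, Molm13 OE heavy, U937 control heavy, U937 OE light or U937 OE heavy (adjusted p 0.069 to 0.187).

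EEF1D (chromosome 8, 143579697 to 143599541, minus strand), the exchange-factor subunit delta, had light levels of 619, 879, 825 and 1295 CPM and heavy levels of 720.0, 448, 613 and 452 CPM in the same order of gradients. In Molm13 control the heavy pool was the higher of the pair, and in the other 3 gradients the light pool was 1.35-fold to 2.87-fold higher. The fitted difference of -0.67 (SE 0.31, edgeR adjusted p = 0.118) did not pass, and was -0.73 without the Molm13 control light library. In DESeq2 EEF1D passed, at -0.72 (adjusted p = 0.0169).

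PABPC1 and EIF4B act at initiation. PABPC1 (chromosome 8, 100685816 to 100722809, minus strand) coats the poly(A) tail and contacts the cap-binding complex. It stood at 1850.1 CPM in the light and 1069 CPM in the heavy pool of Molm13 control, a 1.73-fold difference, and at 7692 against 495 CPM in Molm13 OE, 15.5-fold. U937 control had 6206 against 601 CPM, 10.3-fold, and U937 OE had 11808 against 545 CPM, 21.7-fold. In each of the 4 gradients PABPC1 had the lowest heavy minus light of the 10 genes, and in the U937 OE gradient 0.124% of all tested genes were lower still, against 0.852% in U937 control, 1.29% in Molm13 OE and 19.8% in Molm13 control. The fitted difference was -3.15 (SE 0.47, edgeR adjusted p = 0.000959).

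EIF4B (chromosome 12, 53006158 to 53042209, plus strand), which assists the helicase eIF4A in unwinding leaders, had light levels of 364, 846, 929.7 and 1079.8 CPM in Molm13 control, Molm13 OE, U937 control and U937 OE, and heavy levels of 234, 119, 237 and 203 CPM. The pools did not overlap, and the difference was -1.97 (SE 0.33, edgeR adjusted p = 0.00149).

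The remaining 3 genes have other functions. TPT1 (chromosome 13, 45333471 to 45341370, minus strand) encodes the translationally controlled tumour protein, a small abundant protein linked to growth. Its light levels were 998, 1901, 3647 and 1944 CPM and its heavy levels 579, 545, 824 and 614 CPM, in the same order, with no overlap between pools. TPT1 was the only gene of the 10 whose highest light library was U937 control. Its difference was -1.67 (SE 0.38, edgeR adjusted p = 0.00681), a call lost without Molm13 OE light (adjusted p = 0.0722) or without U937 OE heavy (0.0717).

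NAP1L1 (chromosome 12, 76036587 to 76085033, minus strand), a histone chaperone, had light levels of 240.2, 869, 755 and 939 CPM and heavy levels of 256, 144, 270.4 and 199.7 CPM. Only the Molm13 control light library fell among the heavy values, and the difference was -1.60 (SE 0.34, edgeR adjusted p = 0.00464). HNRNPA1 (chromosome 12, 54280193 to 54287088, plus strand), a nuclear RNA-binding protein and splicing regulator, had light levels of 999.9, 1859.6, 1457 and 1774 CPM and heavy levels of 1343, 871, 1020.0 and 654 CPM. Its Molm13 control pools ran the other way, with the heavy pool higher. The fitted difference of -0.66 (SE 0.33, edgeR adjusted p = 0.149) did not pass, and was -0.84 without the Molm13 control light library. In DESeq2 HNRNPA1 passed, at -0.71 (adjusted p = 0.0266).

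Over the 10 genes, 7 had a negative heavy minus light in all 4 gradients, which 22% of all tested genes had. All 4 heavy libraries lay below all 4 light libraries for 6 of them, against 9.81% of tested genes. Against the 3 light libraries other than Molm13 control, all 10 had every heavy library lower, against 17.4% of tested genes.

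**Figure D2:**
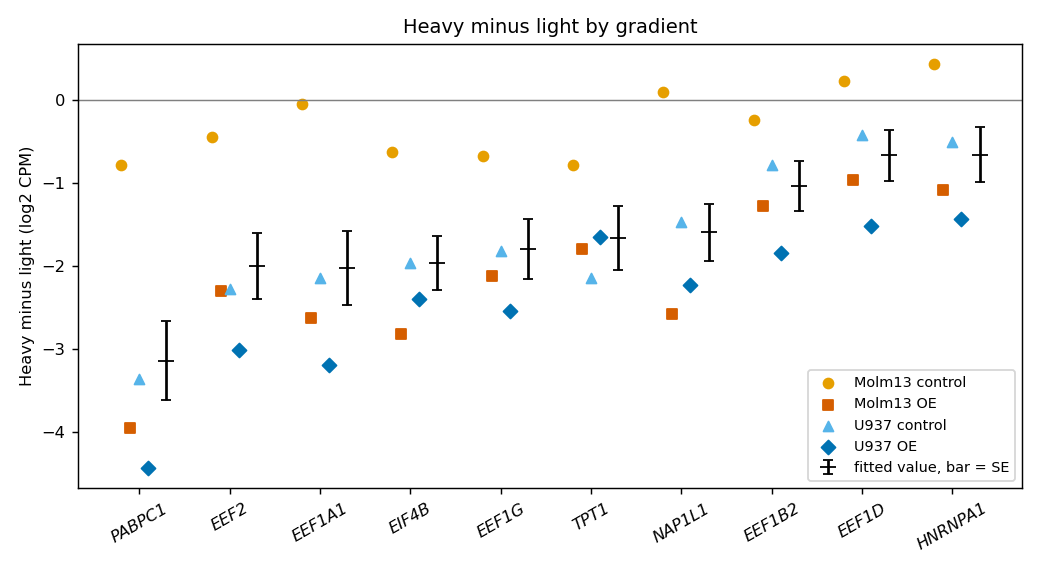
Log2 CPM of the heavy minus the light pool for each of the 4 gradients (coloured symbols) and the fitted value over both genotype labels with its SE (black bars). The Molm13 control points lie between -0.79 and 0.43, and the other 3 gradients lie below 0 for all 10 genes.

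By gradient, the median log2 heavy minus light of the 10 genes was -0.35 in Molm13 control, -2.22 in Molm13 OE, -1.90 in U937 control and -2.32 in U937 OE. All tested genes had medians between -0.04 and 0.07. The small difference in Molm13 control went with the low mitochondrial share of its light library; its part in the result was not tested. The highest heavy library was Molm13 control for 6 of the 10 genes and U937 control for the other 4.

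In the order of the mean over the 4 gradients, the log2 heavy minus light was -3.14 for PABPC1, -2.02 for EEF2, -2.01 for EEF1A1, -1.96 for EIF4B, -1.79 for EEF1G, -1.60 for TPT1, -1.55 for NAP1L1, -1.04 for EEF1B2, -0.68 for EEF1D and -0.66 for HNRNPA1. Each of the 9 neighbouring pairs was compared within gradients with a two-sided exact permutation test over the 4 gradients, whose smallest possible p is 0.125, so no neighbours could pass 0.05. PABPC1 lay below EEF2 in 4 of 4 gradients, with a mean difference of -1.12 ± 0.57 (SD), and EEF1B2 lay below EEF1D in 4 of 4, at -0.37 ± 0.07 (both exact p = 0.125, adjusted over the 9 pairs 0.5625). The other 7 pairs changed order between gradients. No neighbours in this order are shown to differ by these gradients.

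Within the control label alone, none of the 10 genes passed in edgeR's quasi-likelihood test. There 1.08% of tested genes were called, 0.873% as lower in the heavy pool. An unadjusted p under 0.05 was found for 5 of the 10 and for 4634 of the 24289 tested genes. The median of the 10 was -1.21, PABPC1 stood at -2.10 (SE 0.65, edgeR adjusted p = 0.115), and EEF1D (-0.09) and HNRNPA1 (-0.07) were near 0. DESeq2 called 5 of the 10 among 1897 genes, and limma voom called 0 of the 10 among 603. Without the Molm13 control light library 7 of 10 were lower, against 5.91% of tested genes, with a median of -1.72; that control arm rests on 1 light library, assumed to vary like the other groups.

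Under the OE label 8 of the 10 genes fell in the heavy pool, against 8.1% of tested genes, with a median of -2.38. PABPC1 stood at -4.19 (SE 0.69, edgeR adjusted p = 0.00522), EEF1A1 at -2.90 (0.64, 0.00959), EEF2 at -2.67 (0.57, 0.00863) and EIF4B at -2.62 (0.47, 0.00543), each with SE and adjusted p in brackets. EEF1D (-1.25, adjusted p = 0.059) and HNRNPA1 (-1.26, adjusted p = 0.0734) missed the threshold; both passed with upper-quartile scaling (adjusted p = 0.0328 and 0.0437), in DESeq2 (0.0018 and 0.00326) and in limma voom (0.0364 and 0.0456), and EEF1D passed with TMM on nuclear genes (0.0484). EEF1A1 was lost in DESeq2 (adjusted p = 0.0828). Of the 10 genes, 1 passed without Molm13 OE light, where 332 genes of the table were called in either direction, against 5109 with all libraries. Again 1 passed without Molm13 OE heavy (1102 genes of the table), 0 without U937 OE heavy (0 genes) and 10 without Molm13 control light (7537 genes).

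The genotype labels were then compared. The difference in heavy minus light between labels was negative for all 10 genes and for 46.1% of all tested genes. The medians were -1.25 and 0.08. It was also negative for 75 of 79 ribosomal protein mRNAs (median -0.77), 15 of 19 other TOP mRNAs outside the ribosome (-0.97) and 12 of 13 mitochondrial mRNAs (-1.24), from lists described below. None of the 10 passed in edgeR's quasi-likelihood test, nor did any gene of the table (0% called; 1431 genes, 2 of them among the 10, had an unadjusted p under 0.05, and DESeq2 called 6 genes and limma voom 0, with none of the 10). PABPC1 was lowest at -2.10 (SE 0.87, edgeR adjusted p = 0.791, 95% interval -3.98 to -0.21), followed by EEF1A1 at -1.75 and NAP1L1 at -1.66, and TPT1 was nearest 0 at -0.15. Within lines, 9 of 10 genes had a lower heavy minus light under the OE label in both Molm13 and U937, against 21.9% of tested genes. TPT1 was the exception, with -1.02 in Molm13 and 0.48 in U937.

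The difference between labels was more negative in Molm13 than in U937 for 9 of 10 genes (all but EEF1B2), and the Molm13 values rest on the Molm13 control light library. PABPC1 differed between labels by -3.17 in Molm13 and by -1.07 in U937, EEF1A1 by -2.58 and -1.04, and NAP1L1 by -2.68 and -0.75. EEF1B2 (-1.03 and -1.06) and EEF1D (-1.19 and -1.09) were near equal in both lines. Without the Molm13 control light library the median over the 10 genes was -0.83, and 9 were negative. Without the U937 control light library it was -1.70, and PABPC1, EEF1A1 and NAP1L1 passed among 1371 genes called. That fit leaves the Molm13 control light library, which stood apart, as the only control light library, assumed to vary like the other groups.

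In the light pools, 9 of 10 genes were higher under the OE label in both lines, against 24.7% of tested genes. The fitted median was 0.76, and none of the 10 passed in edgeR's quasi-likelihood test (0% of tested genes called). An unadjusted p under 0.05 was found for 2 of the 10 and for 3604 of the 24289 tested genes. DESeq2 called 930 genes, with EEF2 alone of the 10. Fitted values were above 0 for 45 of 79 ribosomal protein mRNAs (median 0.08), 15 of 19 other TOP mRNAs (0.48) and 13 of 13 mitochondrial mRNAs (0.51). EEF2 stood at 1.38 (SE 0.55, edgeR adjusted p = 0.267) and PABPC1 at 1.35 (SE 0.62, adjusted p = 0.333). By line, PABPC1 was higher by 2.06 in Molm13 and 0.93 in U937, EEF2 by 1.62 and 1.23, and EEF1A1 by 1.89 and 0.86. TPT1 was again the exception, with differences of 0.93 in Molm13 and -0.91 in U937. Without the U937 control light library, which again leaves Molm13 control light as the only control light library, 4 of the 10 passed (PABPC1, EEF1A1, EEF2 and NAP1L1) among 1926 genes called. Without the Molm13 control light library none of the 10 did among 854 genes called, and the median was 0.40.

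In the heavy pools, 9 of 10 genes were lower under the OE label in both lines, against 32.2% of tested genes. The fitted median was -0.54, and none of the 10 passed in edgeR's quasi-likelihood test, where 1 gene of the table was called (0.00412%). An unadjusted p under 0.05 was found for none of the 10 and for 3670 of the 24289 tested genes. DESeq2 called 994 genes and limma voom 0, with none of the 10. Fitted values were below 0 for 79 of 79 ribosomal protein mRNAs (median -0.61), 14 of 19 other TOP mRNAs (-0.44) and 11 of 13 mitochondrial mRNAs (-0.79). PABPC1 stood at -0.75 (-1.11 in Molm13, -0.14 in U937) and NAP1L1 at -0.65 (-0.83 and -0.44). EEF2 was the exception at 0.05, with -0.24 in Molm13 and 0.50 in U937. The light, heavy and heavy minus light comparisons of labels share their libraries and are not independent of each other.

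**Figure D3:**
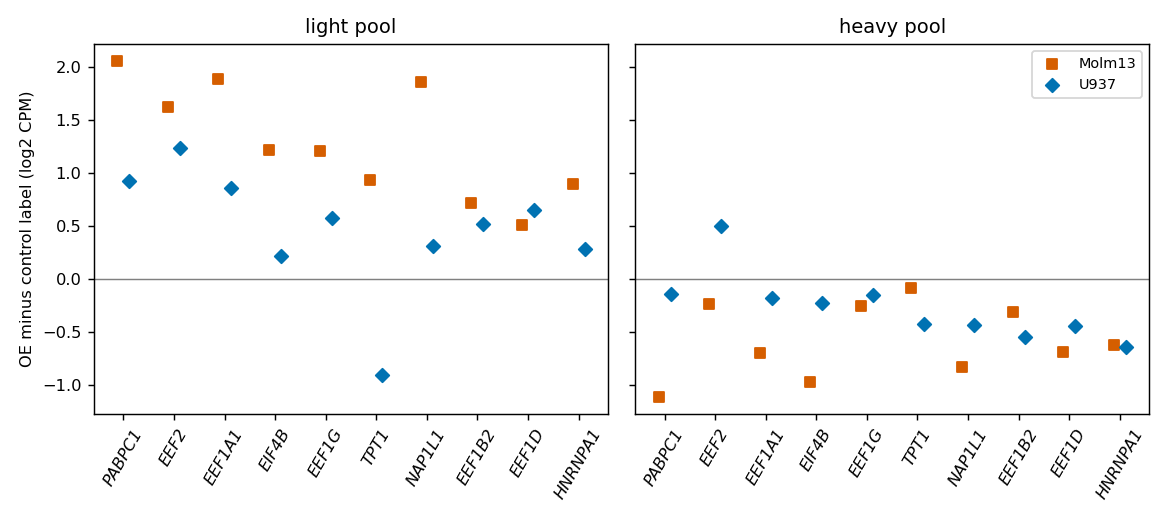
Log2 CPM under the OE label minus the control label, for the light pools (left) and heavy pools (right), with 1 point per line. In the light pools the Molm13 and U937 points lie above 0 for every gene except TPT1 in U937, and in the heavy pools they lie below 0 except for EEF2 in U937.

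The lines were compared in a model with a term for line by pool. Heavy minus light was more negative in U937 than in Molm13 for all 10 genes, with a median of -0.63. Of all tested genes 44.6% were negative, with a median of 0.08. It was also negative for 68 of 79 ribosomal protein mRNAs (median -0.42), 15 of 19 other TOP mRNAs (-0.38) and 13 of 13 mitochondrial mRNAs (-1.22). None of the 10 passed in edgeR's quasi-likelihood test (adjusted p = 1 for each, 0% of tested genes called). In that test 309 genes and none of the 10 had an unadjusted p under 0.05, and DESeq2 and limma voom called 0. PABPC1 differed most, by -1.53 (SE 0.75). Without the Molm13 control light library the median was -0.46, PABPC1 moved to -0.97, and TPT1 (0.31), NAP1L1 (0.16) and EIF4B (0.04) turned positive; without the U937 control light library the median was -0.45 and the same 3 genes were positive. By label, U937 minus Molm13 was -2.58 in control and -0.48 under the OE label for PABPC1, -2.10 and -0.56 for EEF1A1, and -0.54 and -0.56 for EEF1B2. It was -1.36 and 0.14 for TPT1, -1.57 and 0.36 for NAP1L1, and -1.33 and 0.42 for EIF4B; these changes with the label were not tested.

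Per length of annotated exons (GENCODE release 29), the mean level over the 8 libraries was highest for EEF1A1 at 1229 CPM per kb, followed by PABPC1 at 796, EEF1G at 664 and EEF2 at 559.7. It was lowest for NAP1L1 at 26.5, whose annotated exons add up to 17355 bases. The proteins differ in length, which limits how many ribosomes an mRNA can hold. Lengths were read from the principal annotated forms only. By these, TPT1 has 172 codons, EEF1B2 225, HNRNPA1 320, NAP1L1 391 and EEF1G 437. EEF1A1 has 462, EIF4B 611, PABPC1 636, EEF1D 647 and EEF2 858. Of genes close in length by these forms, PABPC1 stood at -3.15 and EEF1D at -0.67, and EEF1G at -1.80 and EEF1A1 at -2.03. Which form of EEF1D these cells make was not measured, so PABPC1 and EEF1D need not match in length. A part of length in these values was not tested. Over tested genes with an annotated coding length, the fitted heavy minus light had a median of 0.28 at up to 150 codons (1176 genes), 0.35 from 151 to 250 (1876), 0.21 from 251 to 500 (4656), 0.03 from 501 to 1000 (4113) and 0.08 above that (1742). In Molm13 control alone these medians ran the other way, from -0.45 in the shortest to 0.41 in the longest class. The fitted value of each of the 10 genes lay below the median of its own length class.

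Other genes of the same pathways were taken from lists. Of 19 other TOP mRNAs outside the ribosome, 6 fell in the heavy pool over both labels and none rose (12.8% of all tested genes fell and 15.8% rose), with a median log2 heavy minus light of -0.25. EIF2S3, a subunit of the initiator tRNA-carrying factor eIF2, stood at -1.98, and EIF3L and EIF3F, subunits of the scaffold eIF3, at -1.87 and -1.40. EIF4A2, a helicase of the cap-binding complex, stood at -1.20. Cytosolic ribosomal protein mRNAs, the largest TOP class, had 19 of 79 lower and 3 higher, with a median of -0.56. RPL41 (-2.47), RPS20 (-2.18), RPS12 (-1.79) and RPS27 (-1.73) led that list by p. Without the Molm13 control light library the ribosomal count rose to 39 lower and 7 higher, with a median of -0.65, and the other TOP list had 6 lower and 3 higher.

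Among 25 genes that control TOP translation, 3 were lower and 8 higher in the heavy pool, with a median of 0.21. EIF4EBP2, a 4E-BP repressor, stood at -2.13 and RPS6KB2, an S6 kinase downstream of mTORC1, at -1.76. EIF4G1, the scaffold that joins the cap to PABPC1, stood at 1.59, and CNBP, an RNA-binding protein reported on TOP leaders, at 1.36. LARP1, named outside the naming rule because it binds the TOP cap, stood at 0.75 (SE 0.25, edgeR adjusted p = 0.0393). The list of relatives and partners of the 10 genes had 4 of 27 lower and 12 higher, with a median of 0.65. PABPC4, a relative of PABPC1, stood at -2.61, while HNRNPAB (1.69) and HNRNPA2B1 (1.45), relatives of HNRNPA1, and EIF5A (1.64), a translation factor, were higher in the heavy pool.

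Of 20 housekeeping mRNAs without a TOP assignment, none was lower and 10 were higher, with a median of 0.97. A start was read for 17 of them. By the rule above 3 of these had the run, with a median of -0.01, and 14 did not, with a median of 1.06. PPIA stood at 1.83, TPI1 at 1.83, SDHA at 1.41 and HPRT1 at 1.12. The 13 mRNAs made inside mitochondria, which cytosolic ribosomes do not translate, were all lower, with a median of -3.55. MT-ND3 stood at -4.96, MT-ATP6 at -4.56, MT-CO2 at -4.37 and MT-ATP8 at -4.14. Their median was -1.67 in Molm13 control and -4.47 to -4.52 in the other gradients, so they too differed least in Molm13 control.

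**Figure D4:**
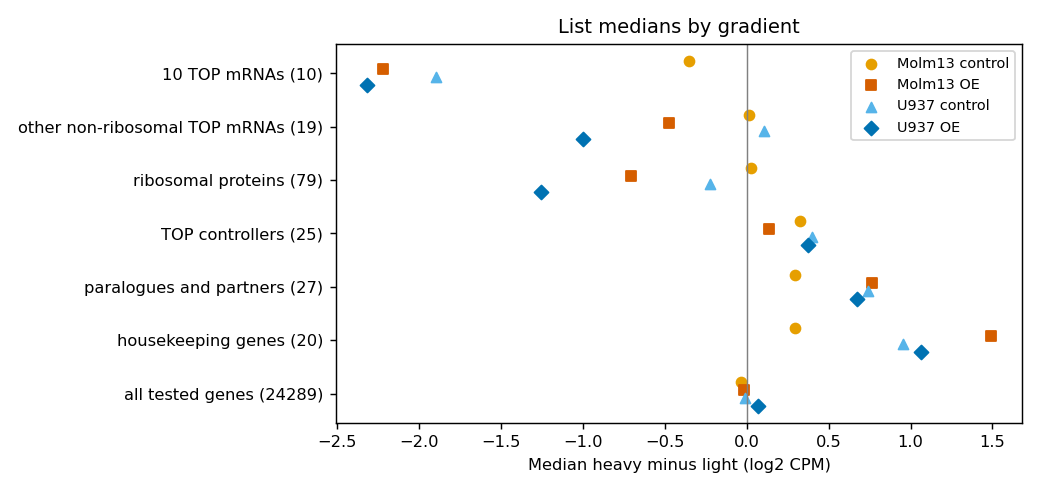
Median log2 heavy minus light by gradient, with the number of tested genes in brackets. Drawn are the 10 TOP mRNAs, other TOP mRNAs, ribosomal proteins, TOP controllers, paralogues and partners, housekeeping genes and all tested genes. The 10 TOP mRNAs have medians of -2.22, -1.90 and -2.32 in the 3 gradients other than Molm13 control, below those of the ribosomal protein mRNAs. The mitochondrial mRNAs are not drawn.

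The start sequences were set beside the same readout. Outside the 10 genes and the ribosomal proteins, 133 tested genes with a mean of at least 100 CPM had the run at the start. The other TOP mRNAs listed above were not taken out. Of the 133 genes, 29 (21.8%) were lower in the heavy pool and 21 (15.8%) were higher, with a median of -0.01. The 1051 without the run had 81 lower (7.71%) and 485 higher (46.1%), with a median of 0.75. At any level, the 799 such genes with the run had 162 lower and 91 higher with a median of -0.12, and the 11201 without it had 1267 lower and 2285 higher with a median of 0.11, so the gap between the medians was smaller than among genes of at least 100 CPM. By gradient, the medians of genes with and without the run were 0.02 and 1.11 in Molm13 OE, 0.27 and 0.93 in U937 control, -0.07 and 1.07 in U937 OE, and -0.11 and -0.01 in Molm13 control. The 7 of the 10 genes with an annotated start had a median of -1.80, EEF1G among them at the same value although its annotated first base is an A. Within the lists the run and the readout went together less closely. The 13 other TOP mRNAs outside the ribosome with the run had a median of 0.11. Ribosomal protein mRNAs had a median of -0.71 with the run (47 genes) and -0.36 without it (16 genes). The run is a description of the annotated start and not a measured TOP mRNA.

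**Figure D5:**
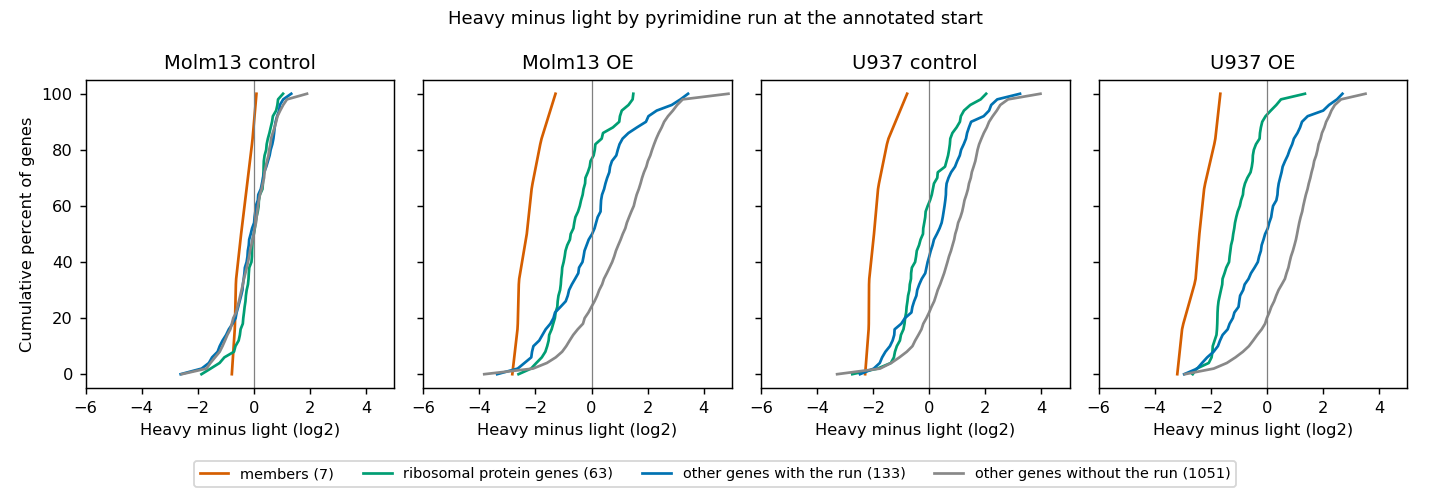
Cumulative percent of genes against log2 heavy minus light in each gradient, for the TOP mRNAs with an annotated start (7), ribosomal protein genes (63), other genes with the pyrimidine run (133) and other genes without it (1051), the last 2 classes at a mean of at least 100 CPM. Genes without the run have a median of 0.93 to 1.11 in the 3 gradients other than Molm13 control, where it is -0.01.

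Across the 8 libraries the log2 levels of the 10 genes followed each other. Pearson's r between pairs of them ran from 0.715 to 0.994 with a median of 0.914 over 45 pairs; all points share the same light and heavy libraries. Of 8357 other genes with a symbol and a mean of at least 10 CPM, those most like the mean of the 10 were PABPC4 (r = 0.995), EIF3F (0.994), MT-TA (0.991), QARS1 (0.991) and EIF3L (0.991). MT-TA is a mitochondrial tRNA gene and QARS1 the glutaminyl-tRNA synthetase. QARS1 stood at -1.60 in the heavy against the light pool (edgeR adjusted p = 0.00298).

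Some counts are shared with other annotated genes. The readthrough gene AP002990.1, whose exons contain those of EEF1G, held 100.2% to 102% as many counts as EEF1G in every library, so reads in overlapping exons were counted for both genes. On the opposite strand EEF1D overlaps AC067930.6 with 89.4% to 94.8%, AC067930.2 with 66.1% to 73.5% and TIGD5 with 0.438% to 3.49% as many counts. MIR7705, a microRNA gene that shares exon bases with PABPC1 on the same strand, held 3.74% to 9.73% as many counts as PABPC1. AL138963.3, antisense to TPT1, held 17.8% to 39.3%, AC068888.1, antisense to EIF4B, 10.3% to 14.3%, and NDUFS1, opposite EEF1B2, 4.12% to 25.7%. Strand use is not given in the sources used here. From these counts reads of these partners cannot be told apart, and the values of EEF1D, PABPC1, TPT1, EIF4B and EEF1B2 carry that uncertainty. Processed pseudogene copies held at most 2.29% as many counts as their parent in any library (EEF1B2), and the 49 copies of EEF1A1 together held 1.19% to 1.36%.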

How the data were processed

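The authors deposited raw counts of reads per gene for 8 libraries; the labels' protocols give polysome fractionation, Trizol and a Smart-seq kit. The submitters' processing notes name cutadapt, STAR, featureCounts and GRCh38 (versions, annotation release and strand use not given in the sources used here). Of the IDs, 42179 had a symbol.

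Counts as deposited were tested with edgeR 4.0.16 (R 4.3.3): TMM, filterByExpr, a quasi-likelihood fit of group plus line label on all 8 libraries (3 residual degrees of freedom; 2 for the line by pool model), and Benjamini-Hochberg adjustment over 24289 genes at 0.05. DESeq2 1.42.0 and limma 3.58.1 (voom), other scalings, no filter and libraries left out were alternatives. CPM were computed here with TMM factors, and log2 CPM with a prior count of 2. SE derive from the quasi-likelihood F statistic.

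The line label is the replicate (n = 2 per group) and pairs libraries of the same cell line; deviations from group means correlated at 0.0169 to 0.338 over 6 pairs of groups. Nothing describes separate cultures within a line, so p-values measure only the spread between these libraries, and the pools of a gradient are counted as independent. The biological coefficient of variation was 0.359.

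Positions, exon lengths and codons come from GENCODE release 29 on GRCh38, and starts from a RefSeq table on GRCh38.p14. The 10 genes and the 8 lists of genes were chosen with earlier results of these data known, and some lists came from textbook knowledge. Named besides the 10 were up to 4 genes per list by smallest unadjusted p in heavy against light, and the 5 genes of highest correlation. The test was tried on simulated counts before use.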

Additional observations from a re-analysis of the deposited data

Results flagged for a closer look

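Among the 34 sets of 4 libraries or gradients checked for a value far from the others (Dixon's test, in which chance alone picks about 1 in 20), 1 stood out. It was the mitochondrial share of counts in the Molm13 control light library, 2.49% against 19.8% to 23.3% in the other light libraries.

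For 3 values the lines moved in opposite directions between labels; the difference between lines was not tested, and each line holds 1 library per label and pool. TPT1 in the light pools differed between the OE and control labels by 0.93 in Molm13 and by -0.91 in U937 (log2). Its heavy minus light differed between labels by -1.02 in Molm13 and by 0.48 in U937. EEF2 in the heavy pools differed between labels by -0.24 in Molm13 and by 0.50 in U937.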

How the results depend on the processing

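Of the 10 genes, 8 were lower in heavy pools over both labels under other scalings, no filter and voom. DESeq2 gave 9, with EEF1D and HNRNPA1 gained and EEF1A1 lost. Without the line block the count was 8 (7 under the OE label, 0 in control), and with the gradient as replicate block 7, which changed the call of EEF1B2. Leaving out single libraries gave 5 (without U937 OE heavy) to 10 over both labels, 0 to 7 in control (7 without Molm13 control light), 0 to 10 under the OE label, 0 to 3 for the label difference in heavy minus light and 0 to 4 for the light pools. The control count was 1 with no filter and 5 in DESeq2, and the light-pool count was 1 in DESeq2. A fit without both Molm13 control pools was added after the data were seen. There PABPC1 in control stood at -3.35 and NAP1L1 at -1.46, against -2.10 and -0.77 with all libraries. Genes called over the whole table moved from 262 in control to 1897 in DESeq2, 1288 with no filter, 0 without the line block and 0 to 4029 with a library left out, and from 1 in the heavy pools to 994 in DESeq2; the cause was not tested.

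Signs that turned belong to values that did not pass with all libraries; of these, NAP1L1 in control passed without Molm13 control light (-1.38, adjusted p = 0.0211). The causes were not tested. In control, without U937 control light EEF1D became 0.0575, NAP1L1 0.0245 and HNRNPA1 0.38, and without U937 control heavy EEF1D became 0.19 and HNRNPA1 0.16. The label difference in heavy minus light of TPT1 became 0.54 without Molm13 control light, 0.26 with Molm13 OE light left out, 0.0865 without U937 OE heavy and 0.41 without both Molm13 control pools. In light pools TPT1 became 0.0522 with upper-quartile scaling, 0.0165 in voom, 0.81 without U937 control light and 0.32 without U937 OE light. In heavy pools EEF2 became -0.00986 with TMM on nuclear genes, -0.0497 with no filter, -0.15 without Molm13 OE heavy and -0.59 without U937 control heavy; without Molm13 control heavy PABPC1 became 0.24, EEF1A1 0.21 and EEF1G 0.11, and without U937 OE heavy TPT1 became 0.0392. The line difference became 0.31 for TPT1, 0.16 for NAP1L1 and 0.0406 for EIF4B without Molm13 control light, and 0.32, 0.17 and 0.0484 without U937 control light. Upper-quartile scaling moved the median of all genes to -0.10 to -0.24, and the median of the 10 genes relative to it stayed at -0.32 to -2.41.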
